A study of Mus musculus with 3 samples.

Results

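Macrophage-like wells of the adult mouse heart are described here: single wells whose RNA carried the macrophage genes Lyz2, C1qa, C1qb and C1qc. They were chosen by their own counts. Wells needed 1000 counts and 300 detected genes to be kept, and members were the kept wells in which these 4 genes together reached 1000 CPM, where CPM is the number of counts per 1000000 counts of nuclear-encoded genes. This gave 251 of 3376 wells. The day 1 library held 99 of 1225 wells (8.08%, exact Clopper-Pearson 95% interval 6.62 to 9.75), the day 2 library 86 of 1059 (8.12%, 6.55 to 9.93) and the day 3 library 66 of 1092 (6.04%, 4.70 to 7.63). The intervals of the 3 libraries overlap.

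The wells came from iCELL8 chips, on which single cells are dispensed into nanowells, imaged, and taken forward when stained by Hoechst and not by propidium iodide. All 3 libraries carry the treatment label "tarmoxifen" and the cell type label adult cardiomyocyte, and none is an untreated control. The series title names Myh6-MCM;Ino80fl/fl, that is, floxed Ino80 and a Cre that tamoxifen switches on, under the promoter of a cardiomyocyte myosin. The genotype labels differ from it and are D1_INO80_OE on day 1, D2_INO80_OE on day 2 and both D3_INO80_OE and D3_Ctrl on day 3. The sources used here do not give strain, age, sex or the number of animals. That promoter aims Cre at cardiomyocytes, and the labels do not say whether either allele was altered in other cells of the heart. Day 3 wells are mapped to neither genotype, and their values are those of both together. With 1 library per day there are no replicates and no test: differences compare libraries, not conditions, and intervals stand for counting error alone, since reads that carry no molecular identifier can be copies of 1 molecule.

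Macrophages are phagocytes that clear dying cells and debris, present antigen on MHC class II, and recruit other leukocytes with chemokines. The healthy heart holds resident macrophages, many of which express Lyve1, Timd4, Folr2 or Cd163, and further macrophages that descend from Ccr2-expressing blood monocytes and often carry much MHC class II. Their differentiation and survival depend on the growth factor receptor Csf1r and on the transcription factor PU.1, encoded by Spi1, which binds ETS motifs in myeloid promoters.

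The promoters of macrophage genes are shown because the wells were chosen by, and are described through, genes of this kind. The letters AGGAAGT, an ETS core that PU.1 can bind, were searched on both strands of RefSeq windows running from 250 bases before to 50 after each gene's start (GRCm38.p6). This motif was kept out of 6 after the matches had been seen, so the counts are a description only. It lay in 3072 of 32851 windows (9.35%), and 10.7% of the genes with a window had it in at least 1. Of the 25 genes named below from the comparison of wells, 20 had a window, and 8 of these 20 held the motif, in 8 of their 25 windows (32%), namely Ccl12, Ccl6, Cd300ld, Ctss, F13a1, Mrc1, Ms4a6b and Pf4. Of the 4 genes of the rule 3 had a window, and all of these did (C1qb, C1qc and Lyz2). A match is no evidence of binding, and a window without these letters says nothing about the factor. The 250 bases before the start follow for 4 of these genes, 5′ to 3′ on the strand of the gene; capitals mark the motif, which reads ACTTCCT here because it lay on the opposite strand. C1qb encodes a chain of the complement protein C1q (chr4:136886201-136886450, minus strand, motif 53 bases before the start). Pf4 encodes the chemokine platelet factor 4 (chr5:90772185-90772434, plus strand, 10 bases before the start). Ccl12 (chr11:82101595-82101844, plus strand, 228 bases before the start) and Ccl6 (chr11:83593088-83593337, minus strand, 48 bases before the start) encode CC chemokines.
C1qb: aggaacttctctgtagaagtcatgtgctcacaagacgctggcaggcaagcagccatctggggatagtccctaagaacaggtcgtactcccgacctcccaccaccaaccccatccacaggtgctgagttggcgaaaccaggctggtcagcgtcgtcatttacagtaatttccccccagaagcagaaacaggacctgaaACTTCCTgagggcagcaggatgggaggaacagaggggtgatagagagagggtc
Pf4: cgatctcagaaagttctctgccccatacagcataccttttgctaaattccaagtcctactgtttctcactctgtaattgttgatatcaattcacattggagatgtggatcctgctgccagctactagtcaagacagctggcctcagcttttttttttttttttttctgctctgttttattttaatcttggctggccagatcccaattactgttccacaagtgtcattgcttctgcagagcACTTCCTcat
Ccl12: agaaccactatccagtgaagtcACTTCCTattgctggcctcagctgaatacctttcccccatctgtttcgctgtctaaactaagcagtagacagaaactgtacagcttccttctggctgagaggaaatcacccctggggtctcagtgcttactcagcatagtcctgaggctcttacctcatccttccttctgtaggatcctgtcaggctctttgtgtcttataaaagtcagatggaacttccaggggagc
Ccl6: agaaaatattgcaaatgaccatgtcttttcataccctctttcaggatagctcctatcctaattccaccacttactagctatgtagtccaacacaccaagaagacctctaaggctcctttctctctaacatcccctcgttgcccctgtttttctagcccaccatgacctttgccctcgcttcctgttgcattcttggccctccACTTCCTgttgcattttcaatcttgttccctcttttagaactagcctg

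On days 1, 2 and 3 there were 1232, 1063 and 1099 wells, whose counts summed to 487461107, 452070922 and 484369736. Members were sequenced about as deeply as the remaining wells, with median counts of 304511, 355711 and 374776 against 320997, 349795 and 361714, and with 3320, 3879.5 and 4022.5 against 3247.5, 3610 and 3880 detected genes. Mitochondrial genes took a median of 38.3%, 39.9% and 19.1% of member counts and 40.0%, 42.5% and 21.3% in the remaining wells, so the day 3 library stood apart in both. Libraries share well barcodes: 278 are in both day 1 and day 2, 268 in day 1 and day 3, 247 in day 2 and day 3, and 67 in all 3. Doublets were not called. The libraries also hold much cardiomyocyte RNA in every well, as given at the end.

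The summed level of the 4 genes of the rule is a description of how the wells were chosen. Its median in members was 5007, 4960 and 2747 CPM on days 1, 2 and 3, with highest wells at 21096, 16648 and 10315 CPM. In the remaining wells the median was 22.5, 19.96 and 9.96 CPM. The 3 members nearest to the threshold had 1029, 1053 and 1201 CPM on day 1, 1031, 1050 and 1290 on day 2, and 1007, 1069 and 1230 on day 3, while the nearest wells outside it had 997, 991 and 982 CPM. Between 500 and 1000 CPM lay 38, 30 and 30 wells. Members between 1000 and 2000 CPM numbered 15, 13 and 22, so those of day 3 sat closer to the threshold. Lyz2, lysozyme 2, stood at 3152, 3499 and 1636 CPM in members and at 35.7, 36 and 27.2 CPM in the remaining wells. C1qb was at 2437, 2225 and 1177 CPM against 26, 24.7 and 13.2, C1qc at 515, 553 and 269 against 5.85, 4.85 and 3.68, and C1qa at 115, 146 and 82.4 against 3.04, 3.20 and 2.18. All 4 were lowest in the day 3 library. Wells in which the C1q genes stayed under 100 CPM, members through Lyz2 alone, numbered 1, 0 and 6.

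**Figure D1:**
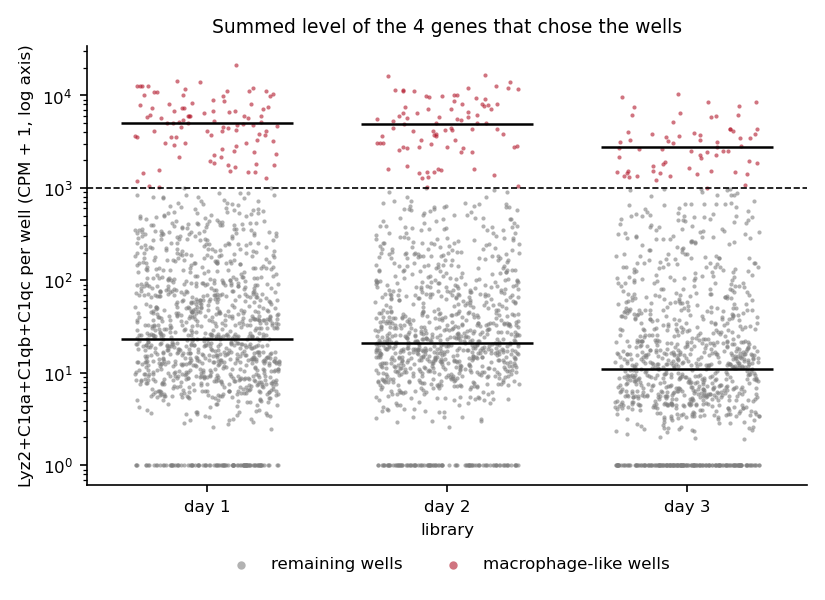
Summed CPM of Lyz2, C1qa, C1qb and C1qc per well (log axis) in the libraries of days 1, 2 and 3, with 1 CPM added for the axis, members and remaining wells in separate colours, medians as bars and the threshold of 1000 CPM as a dashed line. Members have medians of 5007, 4960 and 2747 CPM, and the remaining wells 22.5, 19.96 and 9.96 CPM.

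Genes were then compared between the pooled counts of members and of the remaining wells of the same library. The counts of genes and shares of counts given here include the 4 genes of the rule. Every gene of these wells counts as used by the choice, so the differences describe the wells and are not tests of what they are. Among genes with a mean of at least 10 CPM over both sides, 924 of 6736 were at least 2-fold higher in members on day 1 (13.7%), 863 of 6866 on day 2 (12.6%) and 588 of 6125 on day 3 (9.6%). At least 2-fold lower were 463 (6.87%), 481 (7.01%) and 430 (7.02%). Of 5475 genes measured in all 3 libraries, 227 were higher in each (4.15%) and 16 lower in each (0.292%). The median over all genes was 0.03, −0.02 and −0.01 log2 units. Median-of-ratios scaling moved it to higher values by 0.09, 0.09 and 0.11. Higher genes took 10.3%, 9.79% and 4.97% of the members' counts against 1.78%, 1.70% and 0.90% in the remaining wells. List genes that are low in the remaining wells pass this filter only where members are high. Most lists are therefore counted below without it, by whether the pooled CPM was higher in members, while counts of measured genes use it. Over all genes with a count on either side the share higher in members was 29.1%, 29.9% and 26.7%, with members being the smaller pool. Levels are not divided by gene length, so they are compared between wells and never between genes.

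The rule did not use 19 further markers of macrophage identity, Csf1r and Pf4 among them. The wells were chosen by macrophage RNA, so these markers describe the members and are no check of the label. Pooled CPM of the markers was higher in members for 18 of 19 on day 1, 19 of 19 on day 2 and 19 of 19 on day 3. Csf1r, the receptor for colony stimulating factor 1, was at 318, 336 and 221 CPM in members, with log2 ratios of 5.19 (5.12 to 5.26), 5.17 (5.11 to 5.24) and 2.71 (2.67 to 2.76). The remaining wells were at 8.72, 9.32 and 33.7 CPM, and 16, 26 and 113 of them reached 100 CPM, so the smaller ratio of day 3 went with a higher level outside the members. Among members 50, 46 and 32 reached 100 CPM, so on day 3 most wells at that level lay outside the members. Of those 113 wells 10 had at least 500 CPM of the rule genes, and their median was 32.8 CPM. Exons of Csf1r overlap those of Hmgxb3, annotated on the opposite strand, and the part of Hmgxb3 reads in the Csf1r counts was not tested. Pf4 was at 1454, 1906 and 984 CPM against 8.65, 22.5 and 14.3, giving log2 ratios of 7.39 (7.33 to 7.45), 6.41 (6.37 to 6.45) and 6.10 (6.06 to 6.15). Cd68, a glycoprotein of macrophage lysosomes, was at 257, 315 and 208 CPM against 4.17, 4.93 and 13. Adgre1, the F4/80 antigen, was at 38.5, 51.7 and 24.8 CPM, with log2 ratios of 5.45, 5.43 and 4.86. Aif1 (Iba1), an actin-binding protein of macrophages, was at 262, 312 and 183 CPM against 5.71, 8.33 and 5.55. Cx3cr1, the fractalkine receptor, did not separate the wells on day 1, with log2 ratios of −0.35, 1.04 and 1.40 and 9.73, 31.1 and 21.7 CPM. Apart from Cx3cr1, the markers given here thus had a higher pooled CPM in members in each library.

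The Fc receptor and ITAM list holds antibody receptors and the adaptors that signal for them. Of its 20 genes 19, 20 and 19 had a higher CPM in members. Fcer1g, the signalling chain shared by Fc receptors, was at 3384, 2327 and 1265 CPM against 38.5, 28.4 and 38.7 (log2 ratios 6.46, 6.36 and 5.03). Its partner adaptor Tyrobp was at 865, 860 and 459 CPM against 10.7, 13.7 and 21.0. Fcgr3, an activating IgG receptor, was at 185, 187 and 101 CPM, and the inhibitory receptor Fcgr2b at 83.0, 76.2 and 45.7 CPM. Fcgr genes resemble each other, so the split of reads among them is uncertain. Members thus carried both activating and inhibitory receptors in every library.

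Chemokines, the secreted attractants of leukocytes, had a higher CPM in members for 17, 15 and 17 of 18 genes. The sum of the list had a median over members of 6125, 5829 and 2709 CPM, against 40.5, 44.8 and 22.2 CPM in the remaining wells. Ccl6 was at 2477, 2570 and 1039 CPM against 26.5, 33.2 and 41.0, and its neighbour Ccl9 at 335, 390 and 104 CPM against 3.61, 6.65 and 4.08. Ccl4, an inflammatory chemokine, was at 778, 742 and 242 CPM against 5.62, 5.80 and 5.71. Ccl3, another of this kind, was at 306, 88.1 and 61.2 CPM. The monocyte attractant Ccl2 was at 662, 647 and 269 CPM, with Ccl7 at 546, 645 and 248 CPM and Ccl12 at 245, 286 and 170 CPM. Cxcl2, a neutrophil attractant, was at 335, 268 and 181 CPM against 8.35, 6.11 and 11.0. Ccl8 was at 178, 525 and 139 CPM, but a single well gave 32%, 42% and 18% of its counts. Ccl2, Ccl7 and Ccl12, and likewise Ccl6 and Ccl9, are related genes, and whether reads were split wrongly between them was not tested. Each chemokine given here was lowest in the day 3 library.

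Of the 20 genes of the cytokine list 14, 14 and 17 had a higher CPM in members. Tnf, the gene of tumour necrosis factor, was at 65.9, 55.9 and 36.5 CPM in members, with log2 ratios of 5.79, 5.18 and 3.78, and reached 100 CPM in 22, 13 and 8 members. Il1b, which encodes interleukin 1 beta, was at 9.73, 5.31 and 41.6 CPM, and 1 well gave 61% of its day 3 counts. The NF-kappaB inhibitor Nfkbia, itself a target of that pathway, was at 799, 810 and 316 CPM. In a list of 16 immediate early genes of tissue dissociation, 16, 15 and 14 had a higher CPM in members. Over all genes with a count these shares were 29.1%, 29.9% and 26.7%. From day 1 to day 3 the list median was −0.80 log2 units in members and −0.69 in the remaining wells. The part of dissociation in the chemokine and cytokine levels was not tested. Of 18 genes of Toll-like receptors and their adaptors 17 had a higher CPM in members in each library, though only 7, 8 and 6 reached a mean of 10 CPM. Among them were Tlr2, a sensor of bacterial lipoproteins, at 34.5, 30.1 and 21.4 CPM and Cd14, a co-receptor for lipopolysaccharide, at 120, 68.0 and 58.6 CPM.

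Antigen presentation genes varied widely between members. Of the 10 genes of the MHC class II list 8, 7 and 7 had a higher CPM in members. H2-Ab1, a beta chain of class II, was at 1128, 451 and 476 CPM against 30.3, 12.8 and 21.9, while its median over members was only 170, 9.53 and 3.09 CPM and its highest well 9516, 7791 and 2998 CPM. A minority of wells therefore gave most of its counts on days 2 and 3. The alpha chain gene H2-Aa was at 468, 194 and 165 CPM and the invariant chain gene Cd74 at 86.1, 34.2 and 19.2 CPM. In MHC class I, which nearly all cells express, 10, 10 and 7 of 10 genes had a higher CPM in members, with B2m, its light chain, at 545, 514 and 212 CPM against 229, 191 and 111.

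All 20 genes of the resident macrophage list had a higher CPM in members in each library. Lyve1, a hyaluronan receptor, was at 369.5, 227 and 149 CPM against 12, 9.87 and 8.06. Mrc1, the mannose receptor CD206, was at 216, 337 and 194 CPM against 7.74, 12.4 and 8.27. F13a1, a transglutaminase subunit, was at 362, 651 and 315 CPM against 13.7, 9.52 and 9.54, and Cbr2, a carbonyl reductase, at 552, 529 and 183 CPM against 5.17, 6.78 and 3.47. Wfdc17, a small secreted protein of activated macrophages, was at 3466, 6193 and 1803 CPM against 24.1, 61.9 and 62.2. The haemoglobin scavenger receptor Cd163 was at 74.0, 80.9 and 44.4 CPM. Timd4, a receptor for phosphatidylserine on dying cells, was at 10.5, 27.4 and 4.34 CPM, but only 4, 3 and 1 members reached 100 CPM and 1 well gave 62% of its day 2 counts. Folr2, the folate receptor often used for resident macrophages, was at 0.31, 0.13 and 0.09 CPM. Folr2 thus had almost no counts in members, but its exons overlap those of Gm10602, annotated on the opposite strand. The strand setting is not stated, and whether this overlap lowered its counts was not tested.

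**Figure D2:**
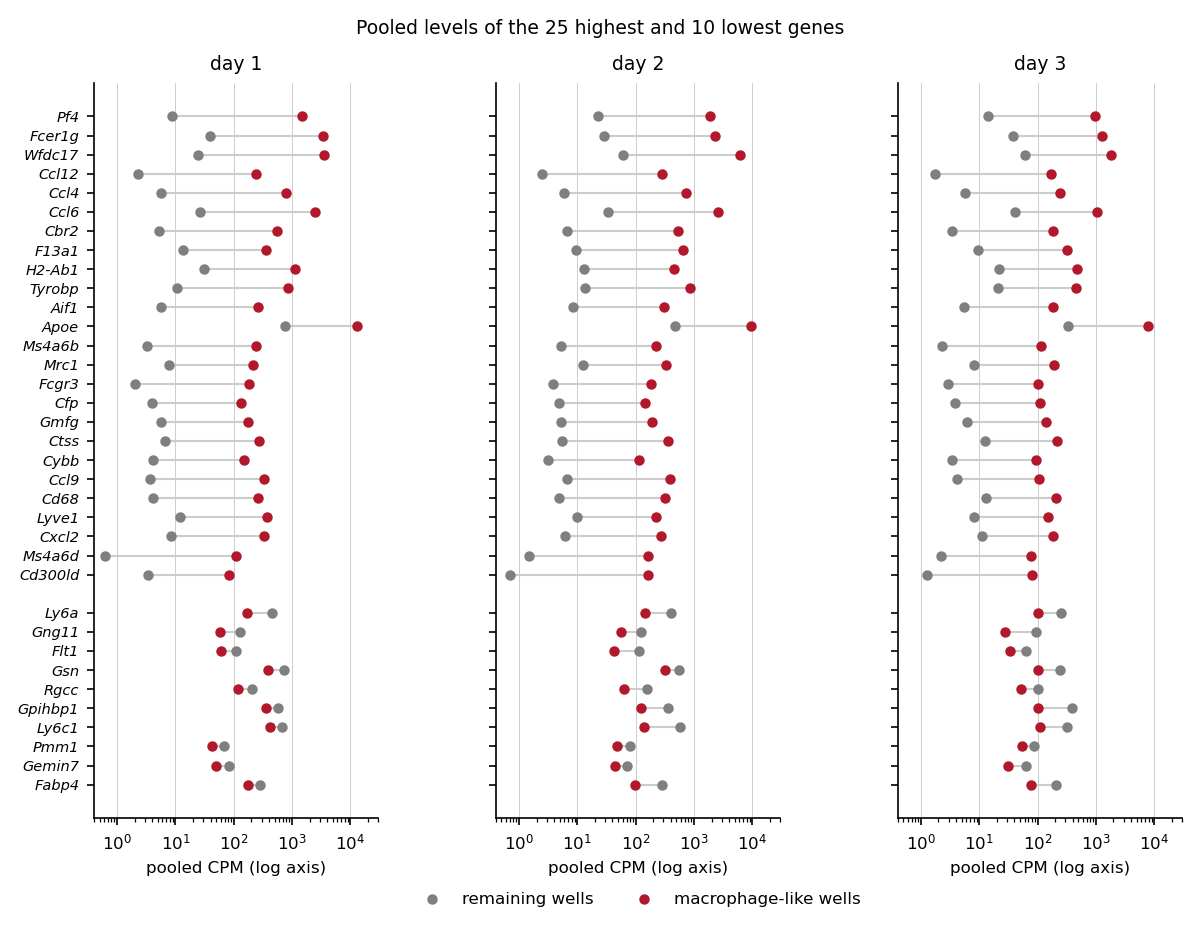
CPM of the 25 named higher and 10 named lower genes in pooled members and pooled remaining wells on days 1, 2 and 3 (log axis). Member values lie above those of the remaining wells for each of the 25 higher genes in each library, which is how the genes were selected, and Pf4 is at 1454, 1906 and 984 CPM against 8.65, 22.5 and 14.3.

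Genes of uptake and digestion were mixed. Of 25 lysosomal genes outside the rule 21, 21 and 17 had a higher CPM in members. Of 23 measured ones 12, 13 and 14 were at least 2-fold higher, against 13.7%, 12.6% and 9.6% of all measured genes. Their medians were 1.25, 1.14 and 1.35, and 5, 3 and 3 of the 23 were under 10 CPM in the remaining wells. Ctss, a cysteine protease that trims the invariant chain, was at 273, 360 and 215 CPM against 6.59, 5.55 and 12.8, and Ctsb, a protease of many cell types, at 1427, 1625 and 1110 CPM against 494, 619 and 512. Ctsd, an aspartic protease, was at 1008, 1612 and 1262 CPM and did not separate the wells (log2 ratios −0.11, 0.05 and −0.05). Msr1, a scavenger receptor, was at 65.3, 140 and 56.3 CPM. Apoe, the lipid carrier apolipoprotein E that macrophages secrete, was at 12960, 9551 and 7877 CPM against 770, 475 and 333, with log2 ratios of 4.07, 4.33 and 4.57. Of the iron genes Ftl1, ferritin light chain, was at 1828, 1716 and 944 CPM against 352, 242 and 210, whereas the heavy chain gene Fth1 was at 4366, 5210 and 3913 CPM against 4401, 4836 and 4026. The ratio to the remaining wells thus differed between the 2 ferritin chains in every library.

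Of the 11 complement genes outside the rule 9, 9 and 10 had a higher CPM in members. Cfp, properdin of the alternative pathway, was at 134, 143 and 110.5 CPM against 3.96, 4.87 and 3.82, and the anaphylatoxin receptor C5ar1 at 60.0, 52.4 and 31.0 CPM. C3, the central component, was at 102, 42.6 and 9.96 CPM in members and 58.7, 67.4 and 30.5 CPM in the remaining wells, so that its level was the higher in members only on day 1. Cytoskeletal genes of blood cells had a higher CPM in members for 16, 18 and 18 of 18, among them Lcp1, the actin bundler L-plastin, at 130, 63.7 and 95.6 CPM and Rac2, a GTPase of the phagocyte oxidase, at 61.3, 102 and 26.6 CPM. Cybb, the catalytic subunit of that oxidase, was at 152, 115 and 95.8 CPM against 4.15, 3.14 and 3.36. Of the transcription factors Maf, a factor of macrophage differentiation, was at 142, 150 and 77.8 CPM. Spi1 was at 59.6, 12.9 and 19.9 CPM against 0.80, 1.05 and 0.81, with 49% of its day 1 counts from 1 well. In the interferon response list 18, 18 and 13 of 20 genes had a higher CPM in members.

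The 227 genes higher in every library included the 4 genes of the rule, 118 genes of no list and each of the 25 named genes. Of the named genes not yet given, Ms4a6b and Ms4a6d, membrane proteins of a family of close relatives, were at 243, 221 and 113 CPM and at 109, 162 and 78.1 CPM in members. The receptor Cd300ld was at 83.6, 160 and 79.8 CPM and Gmfg, an actin regulator of blood cells, at 178, 195 and 141 CPM. Of 99 genes checked for this, 20 overlap another annotated gene, 15 of them one on the opposite strand (F13a1, Ms4a6b, Csf1r and Folr2 among these). Without a stated strand setting reads of such partners cannot be told apart. Several genes lower in every library, Cd34 and Fstl1 among them, were not checked. The 16 genes lower in every library were Ly6a, Cd34, Emcn, Ecscr, Fstl1, Gng11, Adh1, Lum, Adgrl4, Dtd1, Inca1, Mgp, Esam, Snupn, Kdr and Rbp7, and with median-of-ratios scaling this count was 8. Many of these are known from endothelial cells (Cd34, Emcn, Ecscr, Adgrl4, Esam and Kdr) or fibroblasts (Lum and Fstl1), which the remaining wells also hold. Ly6a, the stem cell antigen Sca-1, was at 172, 145 and 103 CPM in members against 444, 408 and 250 (log2 ratios −1.37, −1.50 and −1.28). Gpihbp1, which anchors lipoprotein lipase to capillary endothelium, was at 355, 125 and 100.1 CPM against 580, 364 and 385. Gsn, gelsolin, was at 381, 320 and 102 CPM against 741, 553 and 241.

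Markers of other cells in the members were counted beside these results, and their part in them was not tested. Cardiomyocyte markers were abundant in members but lower than outside them: their sum was 92185, 95718 and 101821 CPM against 108465, 112321 and 112524. Of the 10 markers 1, 0 and 0 were higher in members, and 0 were 2-fold apart in any library, with medians of −0.26, −0.23 and −0.14. Myh6, the main cardiac myosin heavy chain, was found in every member, with lowest, median and highest wells of 5124, 10060 and 25948 CPM on day 1, 4419, 10450 and 20999 on day 2, and 2150, 5808 and 17928 on day 3. The median of the remaining wells was 11425, 11775 and 11323 CPM, so the median of day 3 members was well below it. Pooled over members, Myh6 was at 11149, 10167 and 10457 CPM, so the pooled level of day 3 was close to that of the other days. Of 8 endothelial markers 0, 0 and 1 had a higher CPM in members, and of 8 fibroblast markers 1, 0 and 0. Over all genes with a count the share higher in members was 29.1%, 29.9% and 26.7%. At least 2-fold lower were 2 of 7, 7 of 7 and 5 of 8 measured endothelial genes. For measured fibroblast genes this was 2 of 5, 4 of 5 and 4 of 5, against 6.87%, 7.01% and 7.02% of all measured genes. Dcn, decorin, was at 492, 161 and 52.5 CPM in members. The 11 neutrophil markers summed to 4.96, 13.7 and 11.0 CPM in members against 15.5, 106 and 48.6. Members with S100a8 and S100a9 together at 1000 CPM or above numbered 0, 1 and 1. Erythroid genes were apart on day 2, where Hba-a1 was at 2284 CPM with 81% from 1 well, against 270 and 271 CPM on days 1 and 3. The 8 B cell markers summed to 75.8, 49.4 and 24.7 CPM in members against 2.28, 286 and 3.05. Of these Ighm, the heavy chain of IgM, was higher in members in each library, at 36.9, 27.4 and 24.6 CPM, with 10, 8 and 6 members at 100 CPM or above. Cd79b, of the B cell receptor, was at 38.4, 18.3 and 0 CPM, with 64% and 71% from 1 well on days 1 and 2, while Cd79a and Ms4a1 were under 0.1 CPM and Igkc, an antibody light chain, was at 0.045, 3.65 and 0.043 CPM. The 12 T and NK cell markers summed to 108, 6.93 and 67.0 CPM in members against 69.2, 16.7 and 8.43. On days 1 and 3 most of that sum was the chemokine Ccl5, at 84.0 and 54.0 CPM, but on day 2 it was at 0.21 CPM. A single well gave 78% of its day 1 and 100% of its day 3 counts, and Cd3e was at 0.045, 0 and 0 CPM.

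The 25 named genes were chosen by their ratios in these same wells, so the numbers here follow in part from that choice and are a description. The 25 named genes were spread over most members. The number of them at 100 CPM or above had a median of 14, 15 and 12.5 per member (range 1 to 24, 1 to 22 and 1 to 23), and 81, 70 and 50 members had at least 10. In the remaining wells the median was 1, the highest number was 10, 11 and 18, and 1, 2 and 10 wells had at least 10. Each library held 3 members with fewer than 3 of the genes. In wells with 500 to 1000 CPM of the rule genes the median was 1, 1 and 3.5.

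Members differed in which macrophage genes they held at 100 CPM or above. Lyve1 reached it in 49.5% of members on day 1 (39.3 to 59.7), 39.5% on day 2 and 34.8% on day 3. The summed MHC class II genes reached it in 56.6%, 43.0% and 33.3%, and Mrc1 in 41.4%, 60.5% and 43.9%. Wells with both Lyve1 and class II numbered 27, 11 and 6, with Lyve1 alone 22, 23 and 17, with class II alone 29, 26 and 16, and with neither 21, 26 and 27. The 2 groups of genes thus overlapped in each library and did not divide the members. Pf4 reached 100 CPM in 77.8%, 83.7% and 71.2% of members, and 45 of 49, 32 of 34 and 21 of 23 Lyve1 wells were among them. In the remaining wells Pf4 reached it in 3.02%, 6.27% and 4.87% at like median depths.

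**Figure D3:**
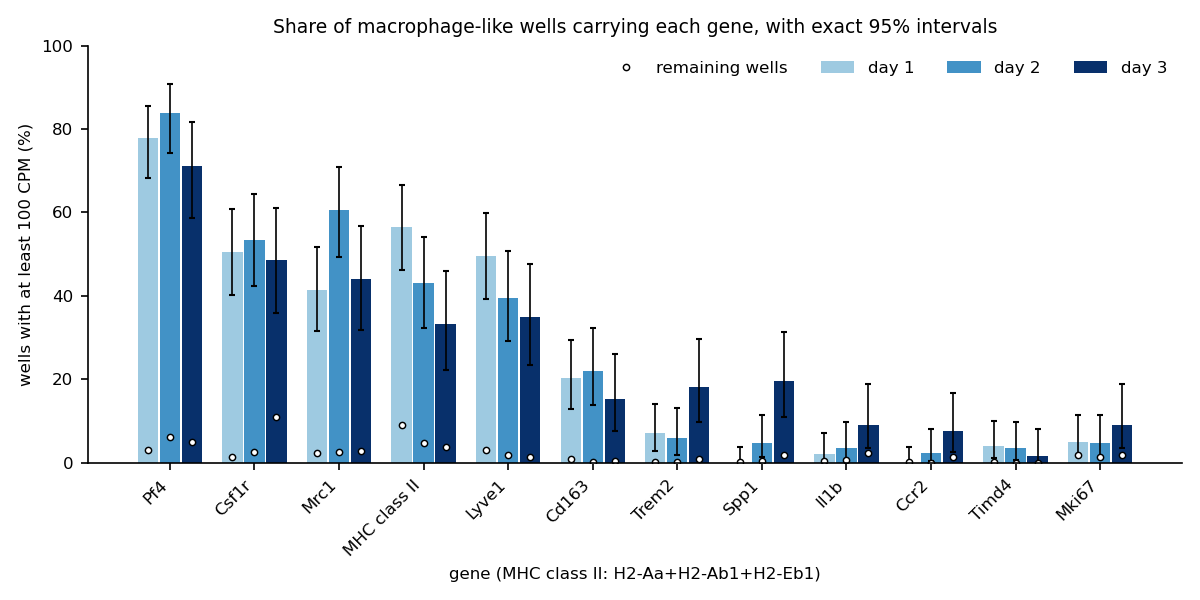
Share of members in percent with at least 100 CPM of each gene or list on days 1, 2 and 3, with exact Clopper-Pearson 95% intervals as lines and the remaining wells as open circles. Lyve1 stands at 49.5%, 39.5% and 34.8% and Spp1 at 0%, 4.65% and 19.7%.

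Some genes of injury and of monocyte descent were found in few wells, most of them on day 3. Spp1, osteopontin, which macrophages of injured hearts express, had 0 counts in day 1 members, below the level of 0.134 CPM that 3 counts give, and was at 70.7 CPM on day 2 and 218 CPM on day 3. It reached 100 CPM in 0, 4 and 13 members (0% with an upper limit of 3.66%, then 4.65%, 1.28 to 11.5, and 19.7%, 10.9 to 31.3). In the remaining wells it was at 0.14, 1.43 and 17.2 CPM over the same days. Trem2, a lipid receptor of phagocytes, was at 24, 23.4 and 57.1 CPM and reached 100 CPM in 7, 5 and 12 members, and 3 wells of day 3 held both genes, against 10 with Spp1 alone and 9 with Trem2 alone. Of the 13 Spp1 wells of day 3, 3 also held Lyve1. Lgals3, galectin-3, was at 94.3, 206 and 223 CPM in members but also at 12.9, 14.3 and 101 CPM in the remaining wells. The chemokine receptor Ccr2 had 0 counts on day 1 and was at 3.36 and 22.4 CPM on days 2 and 3, with 0, 2 and 5 members at 100 CPM, and 4 of the 5 held class II genes. Chil3, a chitinase-like protein of monocytes and macrophages, was at 0, 16.8 and 36.5 CPM, while Ly6c2, a marker of classical monocytes, had 0 counts in every library's members. Of the lipid-associated list, which holds Spp1 and Trem2, 8, 9 and 8 of 16 genes had a higher CPM than in the remaining wells. Over all genes with a count this share was 29.1%, 29.9% and 26.7%. Mki67, expressed in cycling cells, reached 100 CPM in 5, 4 and 6 members, with 72%, 75% and 30% of its counts from 1 well.

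Members of the 3 days were then compared, to see how their transcripts differed between libraries. From day 1 to day 2, 1078 of 6942 measured genes were at least 2-fold higher (15.5%) and 814 lower (11.7%), with a median log2 ratio of 0.06. From day 1 to day 3, 682 of 6564 were higher (10.4%) and 1419 lower (21.6%), with a median of −0.18. From day 2 to day 3, 535 of 6658 were higher (8.04%) and 1528 lower (22.9%), with a median of −0.28. Median-of-ratios scaling shifted these medians by −0.10, 0.14 and 0.24, and the share of higher genes among those apart from day 2 to day 3 went from 25.9% to 41.1%. With mitochondrial counts in the total the lower genes numbered 508, 649 and 718. The comparisons share libraries and are given side by side only. Genes that were higher in members than in the remaining wells in at least 1 library of a pair had medians of −0.09 from day 1 to day 2 (1360 genes), −0.85 from day 1 to day 3 (1184 genes) and −0.74 from day 2 to day 3 (1126 genes), while the same genes in the remaining wells had 0.06, −0.19 and −0.22. These genes were chosen partly by the same levels. More of them thus stood lower than higher in day 3 members. Fewer macrophage transcripts per cell and a larger share of other RNA in the well cannot be told apart, and the mixed genotypes, the lower mitochondrial share and the day move together.

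**Figure D4:**
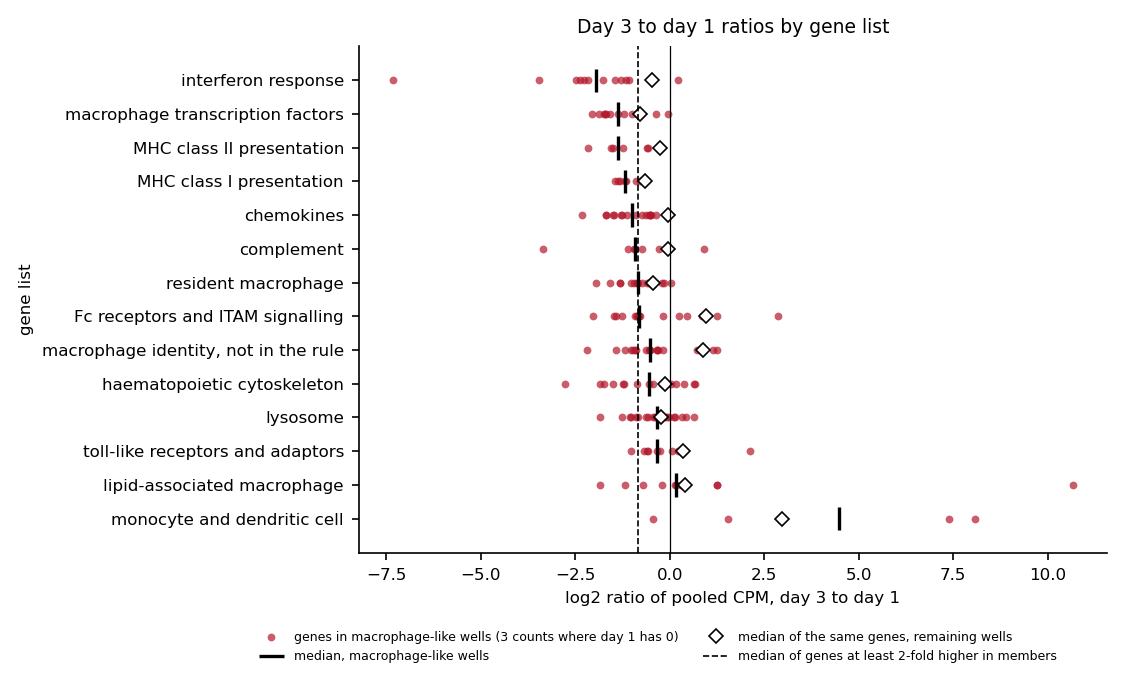
Log2 ratio of pooled CPM from day 1 to day 3 for the measured genes of each list (points, members), with the list median in members (bars), the median of the same genes in the remaining wells (diamonds) and the median of genes higher in members (dashed line, −0.85); where day 1 had no count, points are lower bounds. The interferon response list has medians of −1.96 in members and −0.46 in the remaining wells from day 1 to day 3, and the MHC class II list −1.37 and −0.26.

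Interferon response genes were low on day 3. Without a filter 2 of 20 had a higher CPM in members on day 3 than on day 1, where 44.7% of all genes with a count did. Of 12 measured genes 11 were at least 2-fold lower than on day 1 and 0 higher, against 21.6% and 10.4% of all measured genes. The list median was −1.96 against −0.46 in the remaining wells. From day 2 to day 3, 7 of 11 were lower, against 22.9% of all measured genes, with a median of −1.48. Rsad2 (viperin), an antiviral enzyme, was at 91.5, 23.8 and 8.33 CPM in members and at 14.5, 11.3 and 12.3 CPM in the remaining wells. From day 1 to day 3 its log2 ratio was −3.46 (−3.68 to −3.24) in members and −0.24 in the others. Ifit1, which binds viral RNA, was at 40.2, 34.7 and 11.9 CPM. Ifi203 and Ifi207, of the family of DNA-sensing proteins, were at 71.8, 32.8 and 7.34 CPM and at 160, 76.0 and 35.8 CPM. Rtp4, an interferon-induced chaperone of receptors, was at 76.3, 53.1 and 9.19 CPM in members and at 9.52, 7.95 and 4.73 CPM in the remaining wells. Stat2, a transcription factor of the type I interferon response, was at 55.6, 25.6 and 0.34 CPM, but as the mean of per-well CPM its day 1 to day 2 log2 ratio turned from −1.12 to 0.33. Ifitm3, a membrane protein that blocks virus entry, was at 1558, 1087 and 731 CPM against 664, 638 and 457. The summed list had a median per member of 1566, 1136 and 696 CPM against 413, 290 and 203 in the remaining wells.

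Signalling genes of the macrophage followed by role. Over all measured genes 11.7% were at least 2-fold lower from day 1 to day 2, 21.6% from day 1 to day 3 and 22.9% from day 2 to day 3. For MHC class II, 4 of 6 genes were at least 2-fold lower on day 2 than on day 1 (median −1.21), but the remaining wells had −1.19, and 4 of 6 were lower on day 3 than on day 1 (median −1.37 against −0.26). From day 2 to day 3, 0 of 6 were apart. H2-Ab1 had log2 ratios of −1.32 (−1.36 to −1.29) from day 1 to day 2 and −1.24 from day 1 to day 3, with −1.25 and −0.47 in the remaining wells. Of 16 chemokine genes 8 were lower on day 3 than on day 1 and 0 higher, with a median of −1.01 against −0.05. Ccl3 had a ratio of −2.32 (−2.40 to −2.24) against 0.08, Ccl4 −1.69 against 0.02, Ccl9 −1.68 against 0.18 and Ccl6 −1.25 against 0.63. Of the transcription factor list 8 of 13 were lower on day 3 than on day 1, with a median of −1.37 against −0.80.

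Macrophage identity, resident and lysosomal genes stood as follows between the days. From day 1 to day 3, 4 of 19 identity genes were at least 2-fold lower and 2 higher (median −0.53, against 0.89 in the remaining wells), close to the 21.6% lower and 10.4% higher of all genes. Of 16 resident genes 5 were lower and 0 higher (median −0.85 against −0.45), and of 23 lysosomal genes 4 were lower and 0 higher (−0.35 against −0.23). From day 2 to day 3, where 22.9% of all genes were lower, 4 of 19 identity genes (median −0.66), 7 of 17 resident genes (−0.94) and 5 of 23 lysosomal genes (−0.59) were lower. Csf1r had a ratio of −0.53 (−0.58 to −0.48) in members and 1.95 in the remaining wells, Pf4 −0.56 and 0.72, and Apoe −0.72 and −1.21. Lyve1 had −1.31 (−1.37 to −1.26) against −0.58. Immune genes with the lowest ratios from day 2 to day 3 included Ptprc, the leukocyte antigen CD45, at 52.3, 88.2 and 11.6 CPM (reaching 100 CPM in 13, 23 and 4 members), and Il6ra, the interleukin 6 receptor, at 58.5, 54.1 and 6.96 CPM.

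A few genes had their highest member level on day 3. Il13ra1, a chain of the interleukin 13 receptor, was at 6.47, 17.6 and 56.4 CPM in members and at 7.54, 21.9 and 20.9 CPM in the remaining wells, and its log2 ratio from day 1 to day 3 was 3.12 (2.87 to 3.38) against 1.47. The lectin receptor Clec4a2 was at 9.02, 23.3 and 65.5 CPM in members and at 0.21, 1.41 and 1.70 CPM in the remaining wells. Fn1, fibronectin, was at 5.67, 16.7 and 38.9 CPM against 9.23, 14.6 and 12.6, and Hilpda, a lipid droplet protein induced by hypoxia, at 3.08, 13.4 and 28.3 CPM against 3.35, 4.65 and 6.44. Of 17 monocyte and dendritic cell genes 10 had a higher CPM on day 3 than on day 1 and 5 a lower one. Over all genes with a count 44.7% were higher on day 3. Only 4 of the list reached a mean of 10 CPM.

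Ino80, the targeted gene of the study, was also found in the members. Its level was 2317, 4041 and 702 CPM against 2586, 4750 and 1205 CPM in the remaining wells, with log2 ratios of −0.16, −0.23 and −0.78. On day 3, 31 of 66 members did not reach 100 CPM, 28 reached 1000 CPM and 7 lay in between, against 500, 468 and 58 of the remaining 1026 wells. Counts per gene do not tell RNA of the macrophage from RNA of other cells in the same well, and the part of the cardiomyocyte RNA given above in these levels was not tested. Of the other INO80 complex genes measured, Actb, which encodes beta-actin, was the only one at least 2-fold higher in members.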

How the data were processed

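For 3 libraries of mouse heart cells the authors deposited whole-number read counts, one value for each gene in each well, not normalized. Per the submitters' processing notes, cutadapt, STAR and featureCounts were used with the build mm10; the sources used here do not give versions, annotation or strand setting. Symbols came from GENCODE M21 for 55141 of 55401 mouse identifiers. Spike-ins and added sequences stayed out of all totals.

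In each library, counts were pooled over members and over remaining wells and scaled to 1000000 counts of nuclear-encoded genes (CPM). CPM values have exact Poisson, log2 ratios exact binomial-split and shares exact Clopper-Pearson 95% intervals, and for ratios a count of 0 was set to 3 counts. Calculations used Python 3.11.15, numpy 2.4.6, pandas 2.3.3 and scipy 1.17.1. The code was tested on simulated data. With 1 library per day no test was made.

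A gene was measured at a mean of at least 10 CPM over both sides and apart at a 2-fold difference. Named genes were the 25 highest and 10 lowest by the least extreme of the 3 log2 ratios with 5 CPM added. They had at least 20 CPM and counts in at least 10% of wells on the higher side, with at most 25% of member counts from 1 well. The rule left out the 4 rule genes and mitochondrial, ribosomal protein, Gm, Rik and pseudogene-like symbols. By day it took the 8 highest and 8 lowest of each pair among genes higher in members, and list members may be named too. The members and all lists were chosen with earlier results of these data known.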

Additional observations from a re-analysis of the deposited data

Results flagged for a closer look

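EGFP, a sequence added to the reference and used in no comparison here, had 141 counts in members on day 1 and 78 on day 2, above the 3 counts that a count of 0 allows, and 0 on day 3. Only 3 and 5 members carried them, and single wells gave 118 and 46 of the counts. The remaining wells held 603, 549 and 539 EGFP counts. The libraries include none that is labelled as a control alone.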

How the results depend on the processing

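No paired analysis was possible because each day has 1 library and the results come from no test; for the same reason no replicate could be left out. Of 2273 alternative values for named genes at least 2-fold apart, 2123 stayed at least 2-fold apart, and 1 was reversed: Stat2 from day 1 to day 2 was at 0.33 as the mean of per-well CPM (reported as a fall by 1.12 on the log2 scale). No list median that was 2-fold apart was reversed, and 512 of 545 stayed past 2-fold. The cause of each shift below was not tested, apart from the number of genes that a filter admits.

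With a filter of 2 CPM, 1916, 1821 and 1571 genes were higher in members and 1655, 1647 and 1712 lower on days 1, 2 and 3, with 434 higher and 154 lower in all 3. By day, higher and lower genes were then 2369 and 1986 (day 1 to 2), 1762 and 2949 (day 1 to 3) and 1497 and 3052 (day 2 to 3). With 50 CPM there were 188, 175 and 96 higher, 31, 46 and 32 lower, and 75 and 5 in all 3, and by day 150 and 105, 117 and 230, and 80 and 251. With mitochondrial counts in the total, lower genes numbered 226 and 261 in members of days 1 and 2, and 508, 649 and 718 by day. Median-of-ratios scaling left 8 genes lower in all 3. Relative to the median of genes higher in members, an alternative chosen after seeing the data, 2285 genes were higher and 523 lower from day 1 to 3, and 1792 and 612 from day 2 to 3. The share of members was 11.2%, 11.0% and 8.79% with a threshold of 500 CPM, 4.03% on day 3 with 2000 CPM, and 6.33% and 4.21% on days 2 and 3 with the C1q genes alone.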
